A study of Arabidopsis thaliana with 4 samples.

Results

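Of the 7470 summits in a list of TCP4 binding regions from dark-grown Arabidopsis thaliana seedlings, 2369 (31.7%) lay between genes and close to a single gene. A summit, the position of highest signal within a peak, was a member when it lay outside every protein-coding gene body, within 1000 bp of the end of 1 flanking protein-coding gene and more than 1000 bp from the other. The choice used positions alone and no measured value. The members lay beside 1945 genes. The remaining summits were 995 within 1000 bp of both flanking genes, called shared below, 1894 over 1000 bp from both flanking genes, called distal, 2211 inside gene bodies, and 1 beyond the last gene of a chromosome.

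The libraries were 1 anti-Myc chromatin immunoprecipitation (ChIP) of seedlings overexpressing TCP4 (mTCP4), 1 anti-Myc ChIP of wild-type seedlings (Col), and 1 input library without antibody of each genotype. Seeds of every group were stratified for 3 days at 4 °C, given white light for 3 to 4 h and kept in darkness for 4 days, and whole seedlings were harvested. Neither the promoter that drives TCP4 nor the number of transgenic lines is stated in the labels. The deposited list compares mTCP4 with Col and holds 1 pileup, fold and q for each summit, not a value per library. There was thus no replicate, no test was made, and the 95% intervals below cover counting error only. Members had a median of 86 fragments at the summit (43 to 292), against 86 over all summits (43 to 355).

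TCP4 is a CIN-type member of the plant TCP family of transcription factors, and its transcript is a target of the microRNA miR319. CIN-type TCP proteins restrain cell division and promote differentiation in leaves and cotyledons, in part through jasmonate synthesis. In darkness cotyledons stay closed while phytochrome-interacting factors such as PIF3 accumulate, and SAUR proteins promote cell expansion by acidifying the wall. Arabidopsis genes are closely packed, so a summit between genes often has a candidate target on both sides. A member has only 1 of its flanking genes within 1000 bp, although both ends of a short gene can lie that close.

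The positions at which a summit would be a member made up 17.1 Mb, or 14.3% of the genome. Members occurred there at 139 summits per Mb (133 to 145). Positions near both genes held 137 shared summits per Mb (129 to 146), positions far from both held 62.4 distal summits per Mb (59.6 to 65.3), and gene bodies held 34.3 per Mb (32.9 to 35.8). The member and shared densities had overlapping intervals, and the member density was 2.23 times the distal density. That ratio was 1.05 when non-coding genes and pseudogenes were also counted as genes, 3.66 with 2000 bp in place of 1000 bp, 1.75 with 500 bp, and 1.40 among summits at the lowest control level. For the last, the lengths in Mb were those of all positions, whatever their control level.

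Most members were far from the second gene. The nearer gene end lay at a median of 420 bp (quartiles 162 and 706), the farther one at a median of 2397 bp (quartiles 1589 and 4070). The second gene was more than 2000 bp away from 60.0% of members and more than 5000 bp away from 16.5%. For 62.1% it was at least 5 times as far as the first, and for 10.2% it was at most 1200 bp away. The gene lay on the lower-coordinate side of 50.4% of members.

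The difference between members and distal summits differed with the length of the gap between the 2 genes. Gaps of over 2000 to 3000 bp held 153 members per Mb (142 to 165) and 160 distal summits per Mb (137 to 187), and gaps of over 3000 to 5000 bp held 151 members per Mb (140 to 163) and 164 distal summits per Mb (152 to 177). In both of these classes the intervals overlapped. Gaps of over 5000 to 10000 bp held 137 members per Mb (124 to 151) and 120 distal summits per Mb (112 to 129), and these intervals overlapped too. In the 704 gaps over 10000 bp members fell to 54.0 per Mb (42.5 to 67.6) and distal summits to 13.9 per Mb (12.2 to 15.7), and there the intervals were far apart. Members therefore had a higher density than distal summits in the longest gaps, and not in gaps of over 2000 to 5000 bp. The share of members at the lowest control level also differed by gap, at 31.6% in gaps over 10000 bp against 10.5% in gaps of over 1000 to 1500 bp, and its part in these densities was not tested.

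**Figure D1:**
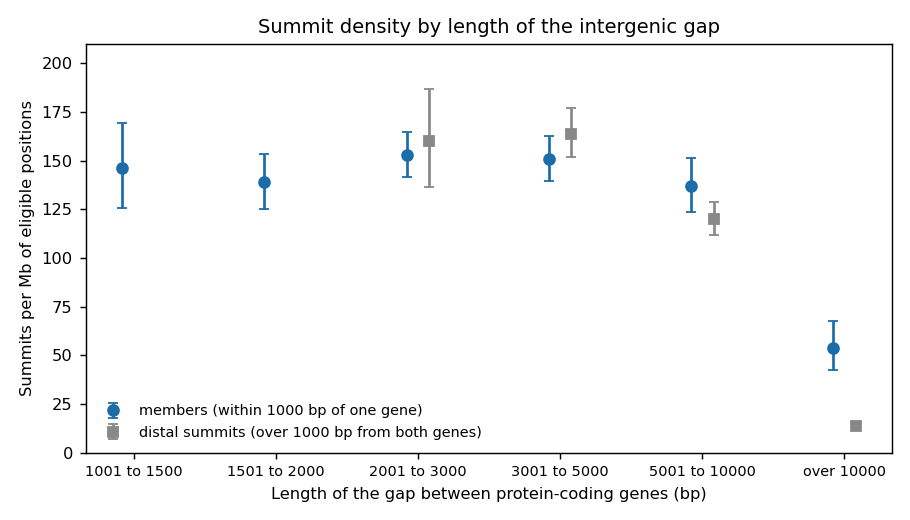
Summits per Mb of positions that meet each definition, by length of the gap between protein-coding genes, for members (blue circles) and distal summits (grey squares). Bars are exact 95% Poisson intervals, which cover counting error only. Member density lies between 137 and 153 per Mb in the 5 classes up to 10000 bp and at 54.0 per Mb in longer gaps, where distal density is 13.9 per Mb.

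Member density was not even along the 1000 bp next to the gene. It was highest beside the gene, with 176 members per Mb (159 to 195) at 1 to 100 bp and 169 per Mb (152 to 188) at 101 to 200 bp. It was lowest between 300 and 500 bp, with 106 members per Mb in the first 100 bp of that stretch (91.5 to 122) and 106 in the next (91.0 to 122). Farther out it was higher again, between 139 and 142 members per Mb in each 100 bp between 600 and 1000 bp. Distal summits in gaps over 2000 bp had similar densities, with 132, 145, 125 and 139 per Mb in successive 100 bp from 1001 to 1400 bp. Over wider zones the densities were 173 members per Mb at 1 to 200 bp (160 to 186), 106 between 300 and 500 bp (95.4 to 117) and 140 between 600 and 1000 bp (131 to 150). These zones were drawn after the profile was seen, and they leave out the stretches between them, which held 129 members per Mb between 200 and 300 bp and 131 between 500 and 600 bp.

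On the 5 chromosomes the zone beside the gene had 1.47 to 1.75 times the middle density and the outer zone 1.08 to 1.50 times. The intervals of the outer and middle zones overlapped on chromosomes 1, 2, 3 and 4 and were apart on chromosome 5. Those of the zone beside the gene and the middle zone overlapped on chromosome 2, where they were 114 to 170 and 72.6 to 123 members per Mb, and were apart on the other 4. On chromosome 3, the chromosome with the shallowest outer side, the outer zone held 124 members per Mb (103 to 147) and the middle zone 115 (90.5 to 144). The ratios were 1.58 and 1.25 in gaps over 2000 bp and 1.85 and 1.67 in gaps of over 1000 to 2000 bp. Members with a fold above the median of all summits gave 1.51 and 1.38, and the other members 1.76 and 1.27. Members at the lowest control level gave 1.47 for the zone beside the gene and 1.75 for the outer zone, over the lengths of positions of every control level. Without a strand in the gene table, starts and ends of genes could not be told apart, so the profile adds both together.

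**Figure D2:**
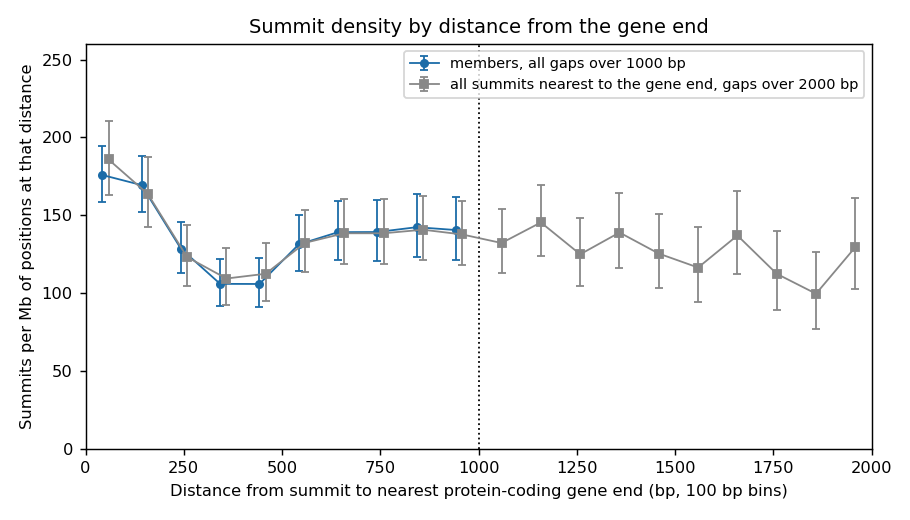
Summits per Mb of positions at each distance from the nearest protein-coding gene end, in bins of 100 bp, for members in all gaps (blue circles) and for members and distal summits in gaps over 2000 bp (grey squares). Bars are exact 95% Poisson intervals, and the dotted line marks 1000 bp. Density is 176 members per Mb at 1 to 100 bp, 106 between 300 and 500 bp and 140 between 600 and 1000 bp.

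Fold enrichment is the authors' ratio of the pileup at a summit to the control level there. Members had a median fold of 3.48 (interval of the median 3.41 to 3.57; quartiles 2.77 and 4.82; range 1.70 to 15.4). The median was 3.33 for shared summits (3.21 to 3.44), 3.62 for distal summits (3.54 to 3.72), 3.26 for summits inside genes (3.20 to 3.34) and 3.43 over all summits (3.40 to 3.47). A fold over 5 was reached by 540 members (22.8%, 21.1 to 24.5%), against 21.3% of all summits, 24.8% of distal summits and 17.3% of summits inside genes. A fold over 10 was reached by 23 members (0.971%), against 1.04% of all summits. Member folds thus stood between those of distal summits and those of summits inside genes, and near those of the whole list.

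The control level moved with these classes. It was at its lowest value, 12.9, at 18.2% of members, 10.9% of shared summits, 28.9% of distal summits and 12.8% of summits inside genes. Among summits at that value the median fold was 3.72 for members, 3.62 for shared summits, 3.83 for distal summits and 3.72 for summits inside genes. Among summits with a control level over 22 it was 3.01 for members, 2.83 for shared summits, 3.07 for distal summits and 2.77 for summits inside genes. Members and summits inside genes thus had the same median at the lowest control level. The place of shared summits differed in between. Above the lowest level and up to 15 they had 3.88, against 3.81 for distal summits and 3.77 for members. Over 15 and up to 18 they had 3.45 and members 3.42, and over 18 and up to 22 they had 3.31 and members 3.36. By distance in bins of 100 bp, the median fold of members was lowest at 1 to 100 bp (3.25), highest between 700 and 800 bp (3.78) and 3.46 both between 300 and 400 bp and between 800 and 900 bp.

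**Figure D3:**
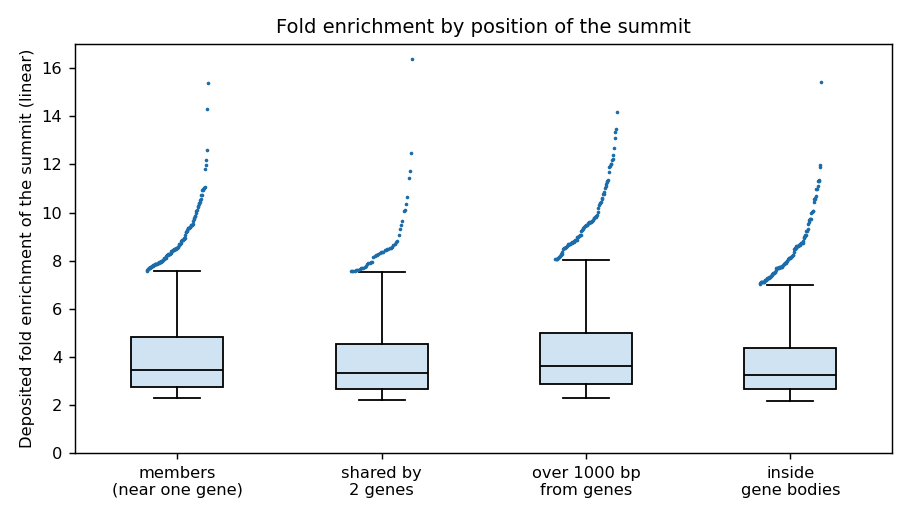
Deposited fold enrichment (linear) of members, shared summits, distal summits and summits inside gene bodies. Boxes span the quartiles with the median as a line, whiskers run to the 5th and 95th percentiles, and points show the summits above the 95th percentile, spread sideways in order of fold. Member folds have a median of 3.48 and reach 15.4, and the 4 boxes overlap.

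The 20 members of highest fold lay beside genes of unlike kinds. KLCR2 (AT3G27960), a kinesin light chain-related gene, had a fold of 15.4 (13.7 to 17.2) 867 bp from its end, at position 10384116 of chromosome 3. KNAT4 (AT5G11060), a KNOX homeobox gene, had a fold of 14.3 (12.7 to 16.05) at 176 bp, at position 3509657 of chromosome 5. These 2 intervals overlapped each other. ZFP8, a C2H2 zinc finger gene of trichome formation, had a fold of 12.6 at 814 bp. LYK4, a LysM receptor-like kinase of chitin perception, had a fold of 12.2 at 280 bp, and BLH4, a homeobox gene of the BEL1 type, flanked the same gap 6366 bp away.

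HAI2, a PP2C phosphatase gene of abscisic acid signalling, had a fold of 11.0 (9.62 to 12.6) at 260 bp. AHG1, also a PP2C phosphatase gene, had a fold of 10.7 (9.36 to 12.2) at 652 bp. AP1, a MADS-box gene of floral meristem identity, had a fold of 10.5 (9.17 to 12.03) at 149 bp. JAZ1, a repressor of jasmonate signalling, had a fold of 10.4 (9.08 to 11.9) at 697 bp. UBP7, a ubiquitin-specific protease gene, had a fold of 10.9 at 435 bp, and the terpene synthase gene TPS03 had a fold of 10.3 at 453 bp.

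The other 10 lay beside genes without a symbol in the gene table. AT1G69570 and AT3G15260 had folds of 11.98 and 11.81 at 952 and 44 bp. AT1G78020 and AT1G78010 face each other across 1 gap and had a member each, with folds of 11.0 at 685 bp and 10.7 at 179 bp. For some of the 20 the second, farther gene is a known regulator. KNAT7, a homeobox gene, was 1631 bp from the member of AT1G62981 (fold 11.0), and the auxin response factor gene ARF11 was 3534 bp from the member of AT2G46520 (fold 11.0). DOF2 was 1592 bp from the member of UBP7, and TEM1, a repressor of flowering, was 3109 bp from the member of AT1G25550 (fold 10.4). When 2000 bp replaced 1000 bp in the definition, 11 of the 20 were still close to 1 gene only, and with 500 bp 12 were. With non-coding genes and pseudogenes counted, 15 of the 20 were still members.

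**Figure D4:**
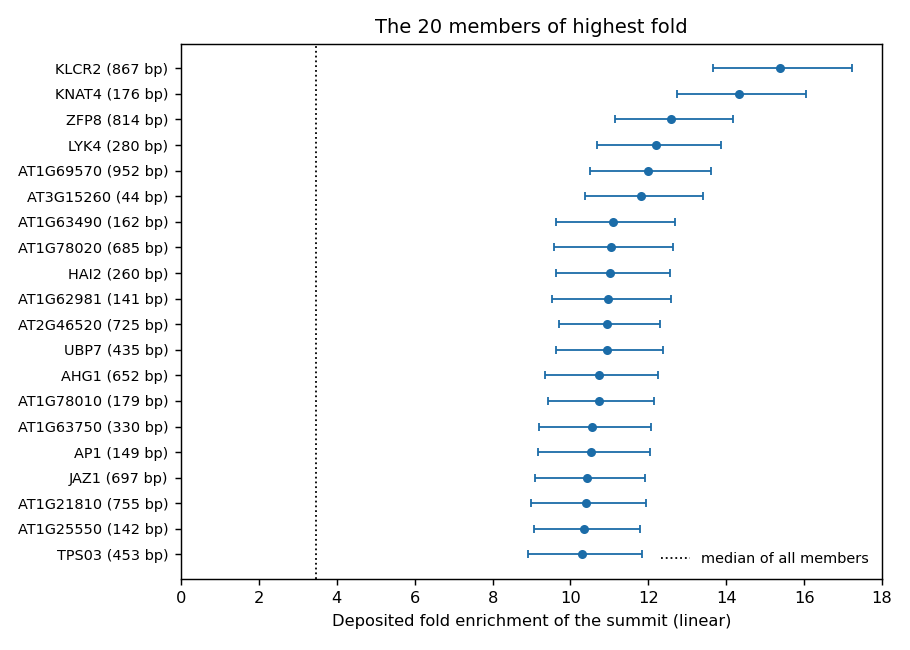
Deposited fold enrichment (linear) of the 20 members of highest fold, labelled by the gene and the distance of the summit from its end. Bars are exact 95% Poisson intervals of the fragment count with the control level held fixed. Folds run from 10.3 at TPS03 to 15.4 at KLCR2, and the dotted line is the median of all members, 3.48.

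The genes in the title of the study differed in where their summits lay. PIF3 (AT1G09530) had 2 members in the gap on its lower-coordinate side, with a fold of 4.63 (3.90 to 5.47) at 83 bp and 3.65 (2.85 to 4.61) at 605 bp. The same gap held a member of the gene on its far side, AT1G09520, with a fold of 4.88 (4.20 to 5.63) at 546 bp from that gene and 3148 bp from PIF3. The intervals of all 3 overlapped. SAUR16 (AT4G38860) had 1 member at 521 bp, with a fold of 4.33 (3.60 to 5.16), and its neighbour SAUR15 was 2887 bp from that summit. A shared summit with a fold of 12.5 lay farther from SAUR16, at 4441 bp, and PIF3 also had a summit inside the gene (fold 4.40). SAUR50 had a summit inside the gene (fold 6.31). Distal summits lay 3633, 3847 and 4805 bp from SAUR50, with folds of 3.59, 4.53 and 2.96. The summit nearest to TCP4 lay inside a neighbouring gene (fold 4.82), so neither SAUR50 nor TCP4 had a member.

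A member lay beside 1945 of the 27444 protein-coding genes (7.09%). Only 16728 genes have an end that faces a gap over 1000 bp and could have had a member, and of these 11.6% had one. One member was found beside 1587 genes, 2 beside 297, 3 beside 57, 4 beside 3 and 5 beside 1. Where a gene had several, they lay at the same end in 289 of 358 genes and at both ends in 69. Of all members, 760 (32.1%) lay in peaks with more than 1 summit, so several members of a gene can belong to 1 peak. Members at the same end were a median of 252 bp apart (quartiles 178 and 502 bp). Within these genes the highest fold was a median of 1.28 times the lowest. Members of genes with 1, 2, and 3 or more had median folds of 3.59 (3.46 to 3.70), 3.32 (3.18 to 3.44) and 3.42 (3.21 to 3.64).

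AT1G78070 had 5 members, 2 in the gap toward AT1G78060, with folds of 3.42 at 803 bp and 2.34 at 44 bp. The other 3 lay in the gap toward RAP2.4, an AP2/ERF gene, with folds of 3.64 at 221 bp, 5.18 at 516 bp and 4.68 at 759 bp. GID1B, a gibberellin receptor gene, had folds of 2.60 at 950 bp and 2.85 at 247 bp on one side, and 5.79 at 439 bp and 3.14 at 997 bp on the other. RTFL17, of the ROTUNDIFOLIA-like family of small peptides that affect cell number in leaves, had 1 member on one side with a fold of 2.49 at 688 bp. It had 3 on the other side, with folds of 4.78 at 94 bp, 3.72 at 433 bp and 3.09 at 658 bp. AT1G72460 had 4, the highest with a fold of 6.64 at 635 bp, and JAZ6 lay across the gap from its other 3.

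The 57 genes with 3 members included regulators of several kinds. ESP1, an RNA processing gene, had folds of 7.52, 7.44 and 5.18 at 818, 638 and 238 bp. The gap that holds them is shared with BEE3, a basic helix-loop-helix gene that promotes growth, which had 2 members in that gap with folds of 2.76 and 2.43 and 1 at its other end with a fold of 4.08. TCP23, a class I TCP gene, had folds of 7.43 at 638 bp, 3.04 at 169 bp and 2.66 at 287 bp. AN3, a coactivator of leaf cell proliferation, had folds of 3.62, 3.21 and 2.82 at 198, 32 and 755 bp. HAT2 and HAT22, homeobox-leucine zipper genes, had 3 each, with folds of 4.03 to 4.25 and of 2.98 to 3.62. ACS8 of ethylene synthesis had folds of 5.59, 5.29 and 2.55, and JAZ3 had 5.84, 5.15 and 3.51.

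Summits recurred in the same genes and gaps. A summit inside the gene body was listed for 366 of the 1945 member genes (18.8%, 17.1 to 20.6%), against 979 of the 14783 eligible genes without a member (6.62%, 6.23 to 7.04%). Gaps over 2000 bp that held a member also held a distal summit in 472 of 1338 cases (35.3%, 32.7 to 37.9%), against 662 of 5200 gaps without a member (12.7%, 11.8 to 13.7%). Of the 1803 gaps with a member, 211 (11.7%) had members beside both flanking genes. A shared summit lay beside 148 member genes (7.61%, 6.47 to 8.88%), against 854 eligible genes without a member (5.78%, 5.41 to 6.17%). The intervals of each pair of shares did not overlap. Gaps and genes were not matched for length or for the gene density of their region, and the share of 11.7% had no comparison. Peaks with more than 1 summit held 32.1% of members, 34.6% of distal summits and 30.0% of summits inside genes. A member and a recurring summit can therefore belong to 1 peak, and the part of this in the shares was not tested. Member genes had a median length of 2244 bp, against 2027 bp for eligible genes without a member.

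For 36 lists of genes, the share of eligible genes with a member was set beside the 11.6% of all eligible genes. The share was above it in 30 lists and at or below it in 6, and the exact binomial interval lay above it in 19 and below it in none. Because the lists were written with earlier results of these data known, these counts are not independent of the data. The lists overlap and differ in the length of positions beside their genes that could hold a member, so members were also counted per Mb of positions beside each list. By that measure the interval of 17 lists lay above the 139 per Mb of all members, and that of 12 lists above 180 per Mb, the density in gene-rich windows of the chromosomes. No interval lay below 139 per Mb.

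**Figure D5:**
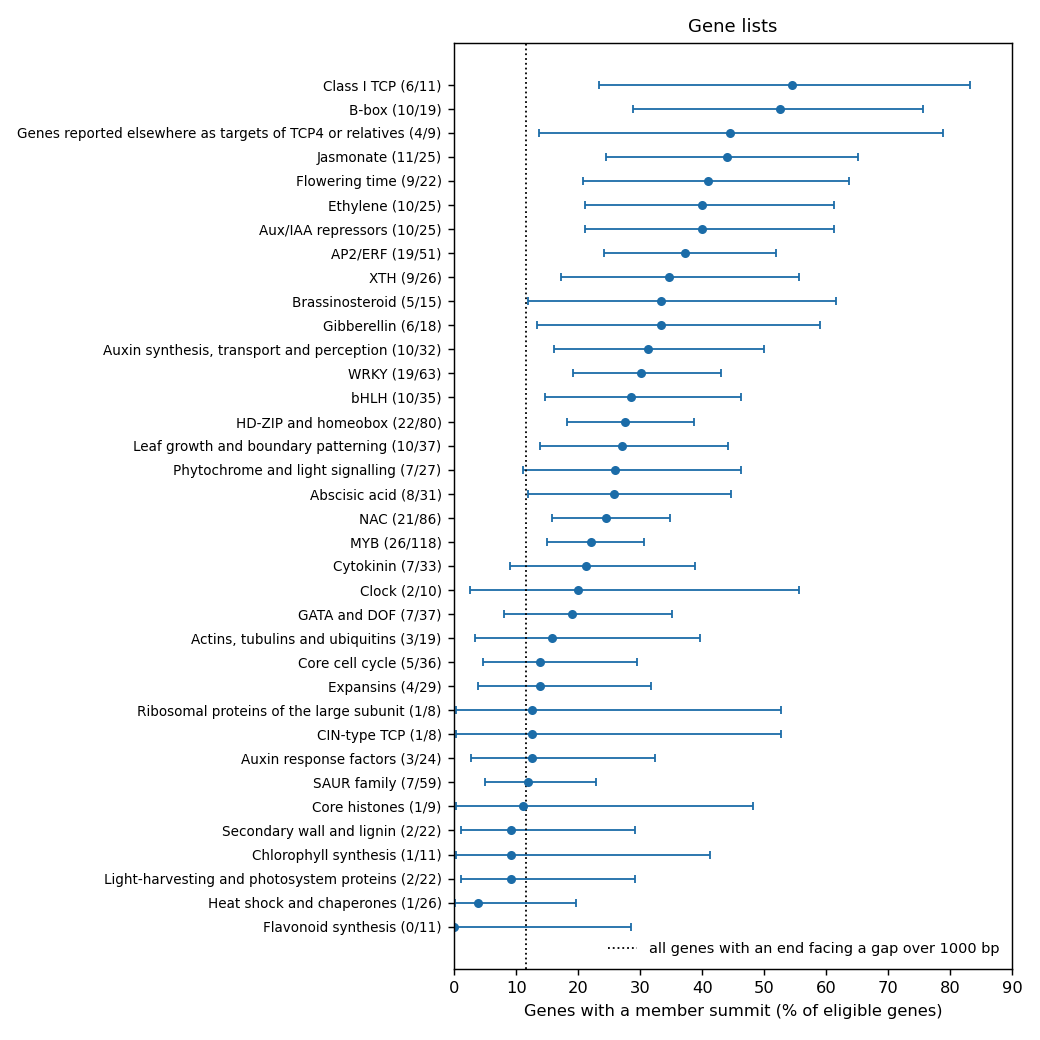
Share of eligible genes, those with an end facing a gap over 1000 bp, that have a member, for 36 gene lists, with genes with a member and eligible genes in parentheses. Bars are exact 95% binomial intervals, which cover counting error only, and the dotted line is the 11.6% of all eligible genes. Class I TCP, B-box and jasmonate genes are among the highest, and heat shock and flavonoid genes are the lowest.

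The hormone lists ranged from shares near that of all eligible genes, in the SAUR family and the auxin response factors, to the 44.0% of the jasmonate genes. Of 25 eligible jasmonate genes 11 had a member (44.0%, 24.4 to 65.1%). After JAZ1 the highest was LOX2, the lipoxygenase of an early step of jasmonate synthesis, with a fold of 9.39 (8.06 to 10.9) at 124 bp. JAZ3 followed with 5.84 and AOC1, an allene oxide cyclase gene, with 5.45 at 10 bp. The median of the highest fold per jasmonate gene was 2.94, below the 3.48 of all members, so the high values were those of a few genes.

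Of the auxin lists, Aux/IAA repressors had a member in 10 of 25 eligible genes (40.0%, 21.1 to 61.3%), led by IAA8 with a fold of 8.87 (7.61 to 10.3) at 333 bp and IAA18 with 6.10 at 611 bp. IAA26, listed under the symbol PAP1, had 5.33 at 209 bp and IAA19 had 4.63 at 89 bp. Genes of auxin synthesis, transport and perception had one in 10 of 32 (31.25%). They were led by YUC6, a flavin monooxygenase of auxin synthesis, with 5.91 at 68 bp, the efflux carrier PIN4 with 4.65, YUC2 with 4.64 and the receptor TIR1 with 4.54. Auxin response factors had one in 3 of 24 (12.5%, 2.66 to 32.4%) and 101 members per Mb (20.8 to 295), and the 3 were ARF10 (4.74), ARF6 (3.09) and ARF8 (2.19). The SAUR family had one in 7 of 59 (11.9%, 4.91 to 22.9%) and 122 members per Mb (55.6 to 231). Both of these densities were below the 139 per Mb of all members, with intervals that include it. SAUR20 (5.58) and SAUR21 (4.40) lay across 1 gap from each other, and SAUR6 had 5.39 at 64 bp.

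Ethylene genes had a member in 10 of 25 (40.0%, 21.1 to 61.3%) and 401 members per Mb (213 to 685). Of the 4 highest, 3 encode ACC synthases, which make the ethylene precursor, with folds of 5.59 at ACS8, 4.89 at ACS5 and 4.47 at ACS7, and the other was the receptor EIN4 with 4.41. Gibberellin genes had one in 6 of 18 (33.3%, 13.3 to 59.0%) and 460 members per Mb (230 to 823). GAI, a DELLA repressor of the response, had a fold of 7.96 (7.03 to 8.99) at 966 bp, ahead of the receptors GID1B (5.79) and GID1C (4.74) and of GA2OX2, which inactivates the hormone (4.57 at 5 bp). Brassinosteroid genes had one in 5 of 15 (33.3%, 11.8 to 61.6%) and 294 members per Mb (95.3 to 685), an interval that includes the 139 of all members. Among these genes were the transcription factors BZR1 (4.58) and BES1 (3.20), the synthesis gene DWF4 (3.18) and the kinase BIN2 (3.14). Abscisic acid genes had one in 8 of 31 (25.8%, 11.9 to 44.6%) and 209 members per Mb (95.4 to 396), an interval that also includes 139. There HAI2 was followed by CYP707A2, which breaks the hormone down (5.07), and the receptors PYL2 (4.31) and PYL4 (4.17). Cytokinin genes had one in 7 of 33 (21.2%, 8.98 to 38.9%) and 299 members per Mb (155 to 522). They were led by the response regulator ARR8 (7.63 at 509 bp), LOG4 of cytokinin activation (6.90) and the oxidases CKX7 (6.05) and CKX5 (5.58).

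B-box genes, zinc finger regulators of light responses and flowering, had a member in 10 of 19 eligible genes (52.6%, 28.9 to 75.6%) and 820.5 members per Mb (478 to 1314). BBX29 had a fold of 8.26 (7.10 to 9.56) at 462 bp and BBX28 had 7.38 (6.32 to 8.58) at 505 bp, ahead of CO with 4.41 and COL5 with 3.65. Phytochrome and light signalling genes had one in 7 of 27 (25.9%, 11.1 to 46.3%). PIF4 had 6.53 (5.57 to 7.62) at 452 bp and PIF5 had 6.33 (5.53 to 7.20) at 465 bp. Both intervals lay narrowly above that of the highest PIF3 member (3.90 to 5.47). They hold the control level fixed, so error in that level is left out. PAR1, an antagonist of these factors, had 3.85. Flowering time genes had one in 9 of 22 (40.9%), among them AT1G69570 and AP1 above, TEM1 with 7.89 at 427 bp and the MADS-box gene SOC1 with 6.16 at 781 bp. Clock genes had one in 2 of 10, GI with 5.77 and RVE2 with 3.04.

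Among TCP genes themselves, 6 of the 11 class I genes had a member (54.5%, 23.4 to 83.3%). TCP23 was the highest, followed by TCP8 (4.14), TCP21 (AT5G08330, 4.07) and TCP9 (3.25). Of the 8 CIN-type genes, 1 had a member (12.5%, 0.316 to 52.7%), TCP5 with a fold of 5.63 (4.62 to 6.80) at 788 bp. The 2 intervals overlapped. Of 9 genes known as targets of TCP4 or related factors, 4 had a member, which were LOX2, CO, SAUR16 and IAA3 (2.32). SAUR16 and SAUR50 are among the 9 from the study of these libraries, so it is not independent of them.

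Growth and wall genes were less uniform. XTH genes, which cut and rejoin xyloglucan, had a member in 9 of 26 (34.6%, 17.2 to 55.7%). XTH7 had a fold of 9.39 (8.07 to 10.9) at 919 bp, XTH18 had 6.23 at 8 bp, XTH24 had 5.74 and XTH17 had 5.37 at 2 bp. Expansins, which loosen the wall, had one in 4 of 29 (13.8%), led by EXPA10 (5.95) and EXPA1 (4.48). Leaf growth and boundary genes had one in 10 of 37 (27.0%, 13.8 to 44.1%) and 255 members per Mb (136 to 435), an interval that includes the 139 of all members. There KNAT4 was followed by the growth-regulating factor GRF5 (5.96 at 158 bp), KNAT3 (5.36) and GRF2 (4.48). Core cell cycle genes had one in 5 of 36 (13.9%, 4.67 to 29.5%), and the 4 highest were the D-type cyclins CYCD3;2 (5.74), CYCD1;1 (4.76), CYCD4;1 (4.73) and CYCD2;1 (2.77).

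Large families of transcription factors were also above the share of all eligible genes. AP2/ERF genes had a member in 19 of 51 (37.3%, 24.1 to 51.9%), led by RAP2.1 (8.001), TEM1, ERF15 (7.88) and RAV1 (7.43). WRKY genes had one in 19 of 63 (30.2%), led by WRKY11 (6.63) and WRKY47 (6.36). The bHLH list had one in 10 of 35 (28.6%), led by bHLH34 (6.73) and BHLH32 (6.37), and the growth regulators HBI1 (6.09 at 65 bp) and PRE1 (4.77 at 50 bp) were among its 4 highest. HD-ZIP and homeobox genes had one in 22 of 80 (27.5%), NAC genes in 21 of 86 (24.4%) and MYB genes in 26 of 118 (22.03%, 14.9 to 30.6%). NAC036 (7.96) and NAC047 (7.85) led the NAC list and MYB62 (7.48) and MYB6 (7.22) the MYB list. GATA and DOF genes had one in 7 of 37 (18.9%, 7.96 to 35.2%), led by ZIM (7.98).

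Lists of metabolism and housekeeping genes had few members, with wide intervals that include the share of all eligible genes and the 139 members per Mb. Their order depended on the measure: per Mb, chlorophyll synthesis genes had 434 members (89.6 to 1270), and actins, tubulins and ubiquitins 259 (70.6 to 663), against 38.5 (0.975 to 215) at heat shock and chaperone genes. Light-harvesting and photosystem genes had a member in 2 of 22 (9.09%), LHCA2 with 6.58 and LHCB2.1 with 5.95. Chlorophyll synthesis genes had one in 1 of 11, HEME1, which had 3 members with folds up to 2.68. Secondary wall and lignin genes had one in 2 of 22, the coumarate ligase genes 4CL2 (5.38) and 4CL1 (3.06). Flavonoid synthesis genes had one in 0 of 11, which allows a share of up to 28.5%. Heat shock and chaperone genes had one in 1 of 26 (3.85%, 0.0973 to 19.6%), the heat shock factor gene HSFC1 (4.93). Core histone genes had one in 1 of 9, ribosomal proteins of the large subunit in 1 of 8, and actins, tubulins and ubiquitins in 3 of 19, all 3 of the last with folds between 2.22 and 2.56.

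Members were spread over the chromosomes at 125 to 147 per Mb of eligible positions and at 8.13 to 9.06 per 100 protein-coding genes. They differed more with gene density. Megabase windows with 250 or more genes held 180 members per Mb of eligible positions (172 to 189), windows with 150 to under 250 genes 101 per Mb (92.3 to 110), and windows with fewer than 150 genes 39.4 per Mb (31.5 to 48.6). The median folds of these members were 3.46, 3.57 and 3.42, so density differed between the windows far more than fold. The lowest control level was found at 16.9%, 21.04% and 27.6% of them, and its part in the densities was not tested.

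Some members lay in or near annotated genes that do not code for protein. Such a gene or a pseudogene contained 107 members (4.52%), and another 157 (6.63%) were nearer to one than to the protein-coding gene. The latter share was 26.3% for distal summits and 3.72% for shared summits. Long non-coding RNA genes contained 84 members (3.55%, 2.84 to 4.37%), although they cover 2.18% of the positions where a member could lie. They also contained 4.28% of distal summits (3.41 to 5.29%) and 3.22% of shared summits (2.21 to 4.51%), with intervals that overlap that of members. Pseudogenes contained 4 members (0.169%, 0.0460 to 0.432%), although they cover 3.99% of these positions. The share was also low for distal summits (0.686%) and shared summits (0.101%). No member lay in a microRNA gene, which allows a share of up to 0.156%.

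At the limit of 1000 bp from the gene, the densities on either side had overlapping intervals. Members between 900 and 1000 bp, in all gaps over 1000 bp, numbered 189, or 140.5 per Mb (121 to 162), with a median fold of 3.66. Distal summits up to 1100 bp from the gene, which need gaps over 2000 bp, numbered 165, or 132 per Mb (113 to 154), with a median of 3.50. Just inside were the members of TLP1 at 1000 bp (fold 2.95), AT1G07210 at 999 bp (4.83) and CYP94B3, a cytochrome P450 gene, at 999 bp (2.14). Just outside were summits 1001 bp from TRM13 (5.71), 1002 bp from AT1G18410 (3.50) and 1002 bp from ARF6 (2.72). Where the second gene was between 1000 and 1100 bp away, 135 members had a median fold of 3.29, and 127 shared summits whose farther gene was between 900 and 1000 bp away had 3.42. The members nearest to that limit were those of DMP7 and LAX3, each 1002 bp from the second gene, and ACI1, 1003 bp from it.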

How the data were processed

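Per the file headers, each line of the single deposited list holds an interval, a summit and 1 value of each kind for mTCP4 against Col. The deposited pileup is a signal, a scaled count of fragments over the summit, and the deposited fold a linear ratio of pileup to control level. The −log10 columns are deposited p and q. Per the submitters' processing notes, Bowtie 0.12.9 and MACS2 2.1.1 were used with build TAIR10. Whether the inputs entered, and with which threshold, is not given in the sources used here.

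Members were found in Python 3.11.15 with genes from RefSeq (TAIR10.1, without strand). Distances join the list to those gene ends, whose coordinates are not printed. Positions meeting each definition gave the lengths in Mb. Pileups were multiples of 0.737 within 0.01, taken as fragments. The control level was recovered with a pseudocount of 1. Only the classification of summits and the lengths of positions were tested on simulated data. Intervals are exact Poisson or Clopper-Pearson, with order statistics for medians. They hold the control level fixed and cover counting error only, and PCR duplicates could narrow them. Library totals were not analysed here.

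The members and gene lists were chosen with earlier results of these data known. Genes named are those of the 20 highest folds, the title genes, up to 4 of highest fold per list, genes with 3 or more members and those at the 1000 bp limit. Genes across a gap from these are named with them. Alternatives were 500 and 2000 bp, a q of 1e-05, the upper 50% by fold, all annotated genes, 1 summit per peak, and the lowest control level alone or left out. Densities, their ratios and the count of the 20 were added after seeing the data. Shares beside gene starts and motif shares were not computed, since no strand or sequence was used here.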

Additional observations from a re-analysis of the deposited data

How the results depend on the processing

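The values named in this section, except the zone ratios and where stated, were followed under 8 alternatives. Other values, such as densities by gap length or gene density and the recurrence of summits, are not given under them. The 2369 members became 430 at the lowest control level alone and 1211 in the upper 50% of summits by fold, both by construction, and the other 6 alternatives gave 1796 to 2297. The median fold of 3.48 became 3.61 with 1 summit per peak, 3.61 with a q of 1e-05, 3.72 at the lowest control level and 4.77 in the upper 50%. The median distance of 420 bp became 763 bp with 2000 bp, 190 bp with 500 bp and 522 bp at the lowest control level. The first and second follow from the altered range, and the cause of the third was not tested.

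The share of protein-coding genes with a member, 7.09%, became 6.76% with 1 summit per peak, 6.11% with 2000 bp, 5.92% with 500 bp and 5.92% with all annotated genes. It became 1.41% at the lowest control level, 5.99% without that level, 6.76% with a q of 1e-05 and 3.94% in the upper 50%. The density of 139 members per Mb became 116 with 1 summit per peak, 129 with 2000 bp, 120 with all annotated genes, 25.2 at the lowest control level, 114 without it, 130 with a q of 1e-05 and 71.0 in the upper 50%. Fewer summits enter in each of these except 2000 bp, 500 bp and all annotated genes, for which the cause was not tested. For the alternatives on control level, lengths in Mb here and in the ratios below were those of all positions, whatever their control level.

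The ratio of member to distal density, 2.23, became 3.66 with 2000 bp, 1.75 with 500 bp, 1.05 with all annotated genes, 1.40 at the lowest control level, 2.56 without it and 2.04 in the upper 50%, and the cause was not tested. The outer zone of the distance profile, 1.32 times the middle, became 1.75 times at the lowest control level, and the cause was not tested. The zone beside the gene stayed 1.47 to 1.73 times the middle in the 6 alternatives run. Zone ratios were not run with 500 or 2000 bp, where the zones lie outside the range or change meaning. Of the 36 list shares, taken over all genes of a list, 28 fell below their own interval at the lowest control level, 8 in the upper 50%, 7 with 500 bp, 3 with 2000 bp and 3 without the lowest control level, and 0 did so in the other 3 alternatives. The counts of lists whose interval lay above that of all eligible genes were not recomputed. Of the 20 members of highest fold, 6 were at the lowest control level and 14 above it, and 20 were still members with 1 summit per peak, with a q of 1e-05 and in the upper 50%.

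The planned shares beside gene starts and with TCP motifs were not run, since no strand or sequence was used here. No paired analysis was possible because each group has 1 library and the list gives no value per library. Without replicates, differences between seedling batches, and between the mTCP4 and Col libraries for reasons other than TCP4, cannot be told apart from binding. Depth limits single folds: for the median summit the interval ran from 19.7% below to 23.1% above the value.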
